A study of Drosophila melanogaster with 17 samples.

Results

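The histone gene cluster of Drosophila melanogaster is a tandem array on chromosome arm 2L in which units of about 5 kb, each carrying genes for the linker histone H1 (His1) and the core histones (His2A, His2B, His3 and His4), follow one another. Its fragments were taken as all deposited intervals whose midpoint lay in the middle 130 kb of 2L 21365001 to 21595000, in release 5 of the genome, and the 50 kb on each side of those 130 kb served as comparison. Over 17 libraries of chromatin or naked DNA cut with micrococcal nuclease (MNase), 422883 distinct fragments lay in the cluster, out of 166237383 on the chromosome arms, and 148126 lay in the flanks.

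Total digested DNA was read on nanopore devices in 10 libraries, and DNA was read as paired ends on Illumina in the other 7. Untreated BG3-c2 cells, a line from the larval central nervous system, gave 2 nanopore libraries. Kc cells, a line from embryos, gave 2 nanopore libraries after dsRNA against GST (control) and 2 after dsRNA against histone H1, applied again on day 3 and followed by harvest on day 6. BG3-c2 cells given dsRNA against GST (control) or 50 µg of dsRNA against ISWI, with harvest on day 6, gave 2 Illumina libraries each of tetranucleosomal DNA, the band of 4 nucleosomes. Untreated BG3-c2 chromatin cut with a low, a medium or a high amount of MNase gave 1 nanopore and 1 Illumina library per amount. For the Illumina titration, tetranucleosomal DNA was selected by size as well. Of 237185 cluster fragments in its low digest, 100986 were 601 to 800 bp long and 52 were over 1200 bp. Fragments up to 250 bp or over 1200 bp thus lie outside the selected band. The name tetranucleosomal libraries is kept below for the control and ISWI ones. Purified BG3-c2 genomic DNA without histones, cut with MNase, gave 1 nanopore library, called naked DNA below. All cells were grown at 26°C, and digestion lasted 20 min at 37°C according to the labels' protocol. The labels do not say that the libraries of a group came from separate cultures, so p-values measure the spread between libraries, which may be technical. How far H1 and ISWI were depleted was not analysed here.

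Histone genes are needed in bulk while DNA is replicated, and in Drosophila the replication-dependent ones are kept together in this array, where a nuclear body gathers the factors that make and process their messages. Core histones form the octamer around which DNA winds in a nucleosome, and H1 binds the linker where DNA enters and leaves it. MNase cuts linkers first, so partial digestion leaves a ladder of fragments of 1, 2, 3 and more nucleosomes. ISWI is the motor of remodelling complexes that space nucleosomes evenly. The array is therefore both a stretch of chromatin and the source of the histones that build it, and the dsRNA against H1 was aimed at a gene of the array itself.

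The gene table of RefSeq, which follows release 6, names 111 histone genes in the array. They are 23 His1 (linker histone), 20 His2A and 23 His2B (which pair as a dimer in the octamer), and 23 His3 and 22 His4 (which form its central tetramer). No other protein-coding gene lies between them. The commonest order of neighbours was His4, His3, His1, His2B, His2A, which occurred 20 times. Since the table and the fragments use different releases, no gene was placed on the fragment map, and positions within the unit are given below without gene names.

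The gene-specific parts of the oligos for the H1 dsRNA, as the labels list them and without the added promoter for transcription in vitro, are shown because they name the member of the array that was targeted. His1 lies on chromosome arm 2L. Each part is 21 bases long, written from 5′ to 3′.
H1 primer 1: gatgtctgattctgcagttgc
H1 primer 2: gggcttcgactttatgattcc
With 23 His1 genes in the table, the dsRNA was directed at a repeated gene, and the fragments do not tell these copies apart.

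The depth in the cluster differed widely. Nanopore chromatin libraries held 14 to 775 fragments there, with a median of 171, and the naked DNA library held 1371. The Illumina libraries held 1785 to 237185. Replicate 2 of the Kc control and of the H1 knockdown held only 22 and 14 cluster fragments, so their own length values are imprecise. They are kept in the tests over libraries. Nanopore chromatin tests of density, median length and the share up to 250 bp are also given for the 7 libraries with at least 30 cluster fragments. The test of scores includes both of these replicates and has no such version. All values below are from distinct intervals, and intervals given as 95% cover counting error only.

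A read from a repeated unit can be placed at any copy, and low nanopore scores were common in the cluster. The score, whose values resemble mapping qualities, was under 20 for 74.3% to 81.8% of cluster fragments in the 8 scored chromatin libraries. It was under 20 for 9.38% to 16.5% of flank fragments and for 2.78% to 4.64% of fragments elsewhere on the arms. The cluster lay above the flanks by 65.4 percentage points on average (SD 4.11, n = 8), in 8 of 8 libraries, with p = 0.0078 in an exact two-sided sign-flip test, the smallest p that 8 libraries allow. In naked DNA the shares were 74.1% and 12.4%.

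The density of the cluster relative to its flanks, in fragments per kb, separated by platform and not by treatment. In nanopore chromatin the ratio was 0.412 and 0.571 in untreated BG3-c2, 0.432 and 0.529 in Kc control, 0.384 and 0.634 after H1 dsRNA, and 0.508, 0.380 and 0.335 in the low, medium and high digests. All 9 lay below 1, with a mean log2 ratio of -1.13 (SD 0.31, n = 9; p = 0.0039, exact sign-flip test, the smallest p possible). The 7 deeper libraries alone averaged -1.23 (SD 0.26; p = 0.0156, exact sign-flip test). In Illumina libraries the ratio was 2.47 and 2.69 in BG3-c2 control, 2.73 and 2.47 after ISWI dsRNA, and 2.30, 2.19 and 2.12 in the low, medium and high digests. All 7 lay above 1, with a mean log2 ratio of 1.27 (SD 0.14, n = 7; p = 0.0156, exact sign-flip test, the smallest p possible). The groups of platforms do not overlap, even for the same digest.

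**Figure D1:**
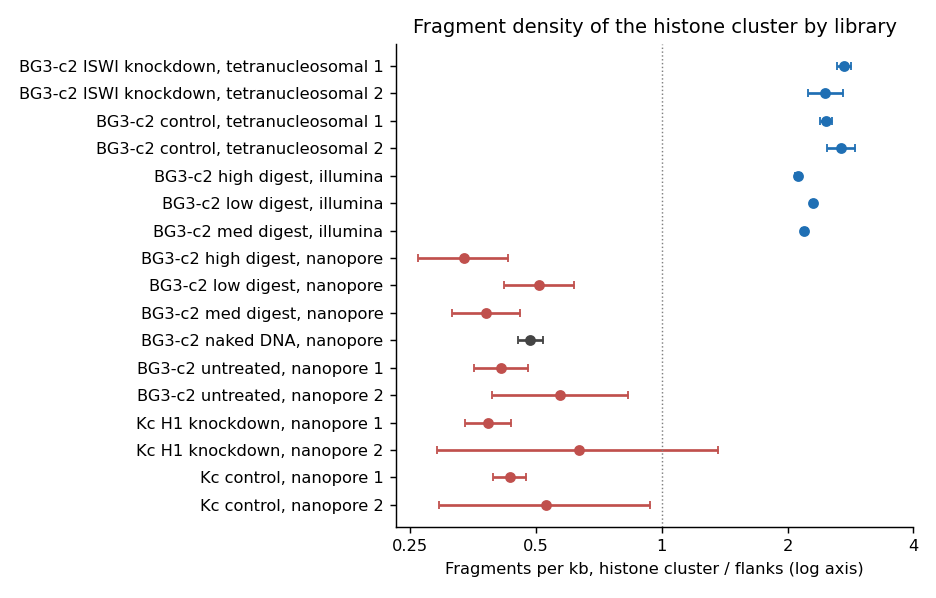
Fragments per kb in the histone cluster divided by those in the 50 kb flanks, by library, on a log axis; bars are 95% counting intervals. Nanopore chromatin libraries (red) and naked DNA (dark grey) sit between 0.335 and 0.634, and Illumina libraries (blue) between 2.12 and 2.73.

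Naked DNA was on the nanopore side. Its cluster held 1371 reads and its flanks 2180, a ratio of 0.484 (95% interval 0.452 to 0.518), within the range of the nanopore chromatin libraries. With reads scored at least 20 alone, which leaves out 74.1% of its cluster reads, the ratio was 0.143. Against 922 blocks of 130 kb on the arms, the cluster had 0.507 times the reads of the median block in naked DNA and 0.327 to 0.815 times in nanopore chromatin, where it was the lowest block of all in the high digest. In Illumina libraries it had 1.75 to 2.72 times the median block and ranked 5th to 49th from the top. Platform, selection for length and placement of reads differ together here and cannot be told apart, so no number of copies was derived from either ratio.

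The ratio depended on fragment length. For naked DNA it was 0.336 up to 250 bp (123 cluster reads), 0.290 at 251 to 400 bp and 0.397 at 401 to 600 bp. It was 0.609 at 601 to 800 bp and 1.15 (0.951 to 1.39) at 801 to 1200 bp. Over 1200 bp it was 2.53 (1.75 to 3.74), from 125 cluster and 38 flank reads. Long naked fragments were therefore denser in the cluster than in the flanks, and short ones less dense. In nanopore chromatin the order was similar up to 1200 bp, but the level over 1200 bp stayed lower in the libraries with at least 181 cluster fragments. It was 0.678 (0.458 to 1.00) in untreated BG3-c2 replicate 1, 0.595 (0.494 to 0.717) in Kc control replicate 1 and 0.493 (0.383 to 0.632) in H1 replicate 1. These intervals do not overlap that of naked DNA. In the nanopore low digest it was 1.05 (0.699 to 1.58), which does not overlap it either. Untreated BG3-c2 replicate 2 had 1.44 (0.574 to 3.93), and the medium and high digests had 1.36 (0.661 to 2.93) and 6.15 (0.825 to 273), from 8, 13 and 1 flank reads, too few to separate from naked DNA or from 1. Kc control replicate 2 had 0.855 (0.312 to 2.38), from 9 flank reads, an interval that overlaps that of naked DNA. H1 replicate 2 had 6 cluster and 0 flank reads. In the Illumina low digest the ratio was 2.13 up to 250 bp, 1.86, 2.08 and 2.61 in the next classes and 3.52 (3.38 to 3.65) at 801 to 1200 bp. Over 1200 bp it was 0.146 (0.106 to 0.196), from 52 cluster and 275 flank fragments, the opposite direction to naked DNA. Such lengths lie outside the band selected for Illumina. The medium and high Illumina digests gave 0.143 and 0.154 in that class and control replicate 1 of the tetranucleosomal libraries 0.103, from 2 cluster and 15 flank fragments.

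**Figure D2:**
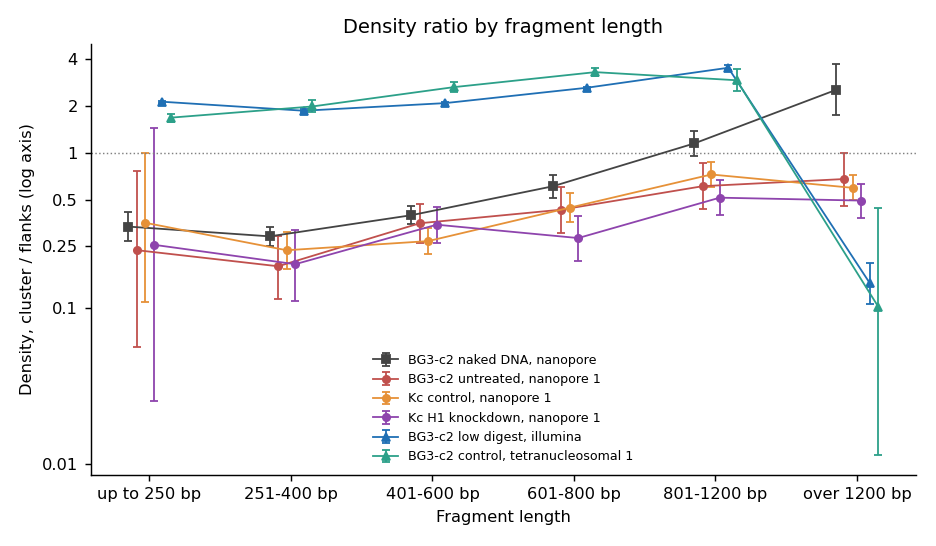
Density ratio of cluster over flanks by fragment length class, on a log axis, with 95% counting intervals. Naked DNA (squares) goes from 0.336 up to 250 bp to 2.53 over 1200 bp. The 3 nanopore chromatin libraries shown, those with the most cluster reads, stay below 1 in every class. Of the shallower ones, not shown, 4 had ratios of 1.05 to 6.15 over 1200 bp and Kc control replicate 2 had 0.855. The Illumina libraries (triangles) lie above 1 up to 1200 bp and at 0.146 and 0.103 over 1200 bp.

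Because of this dependence, nanopore chromatin was also set against naked DNA of the same lengths. With fragments up to 1200 bp, the cluster held 0.678 and 0.811 times the number expected from naked DNA in untreated BG3-c2, 0.689 and 0.525 times in Kc control, and 0.557 and 0.733 times after H1 dsRNA. The low, medium and high digests gave 0.713, 0.709 and 0.763. All 9 were below 1, with a mean log2 value of -0.56 (SD 0.20; p = 0.0039, exact sign-flip test). With all lengths, 8 of 9 were below 1 and the mean was -0.73 (SD 0.56; p = 0.0117, exact sign-flip test). The 7 deeper libraries were all below 1 both ways, with means of -0.52 up to 1200 bp and -0.81 at all lengths (p = 0.0156 for each, exact sign-flip test). The exception was H1 replicate 2, at 1.28 from 14 reads (0.603 to 2.73). Every value shares the single naked DNA library, whose own error the test does not cover, and the comparison was added after the data had been seen.

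Along the array, the platforms also differed in where fragments lay. In naked DNA the first 15 kb held 0.832 times the flank density, the last 25 kb 0.925 times and the middle 0.303 times. Kc control replicate 1 gave 0.826, 0.643 and 0.307 for the same stretches, and H1 replicate 1 gave 0.836, 0.539 and 0.265. The first 15 kb lay above the middle in 9 of 9 nanopore chromatin libraries and the last 25 kb in 8 of 9. The exception was H1 replicate 2, with 14 reads, at 0.471 in the last 25 kb and 0.588 in the middle. Illumina fragments filled the whole array. In the low digest the same 3 stretches held 2.43, 2.57 and 2.20 times the flank density, and in control replicate 1 they held 2.71, 2.90 and 2.31 times.

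A gap in the pattern was shared by the Illumina libraries. The windows starting at 21440001 and 21445001 held 0.839 and 0.771 times the flank density in the low digest, beside 3.50 times in the next window of 5 kb. The values were 0.744 and 0.630 in the medium digest and 0.769 and 0.696 in the high digest. In the 4 tetranucleosomal libraries the window at 21440001 was the lowest of the 26, at 0.958 to 1.09. Just outside the right edge, the window at 21545001 held 3.37 and 3.45 times the flank mean in control libraries and 3.86 and 3.41 times in ISWI libraries, against 1.25, 1.64 and 1.91 in the low, medium and high Illumina digests. A part of the flank count in the tetranucleosomal libraries thus came from the 5 kb next to the array.

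**Figure D3:**
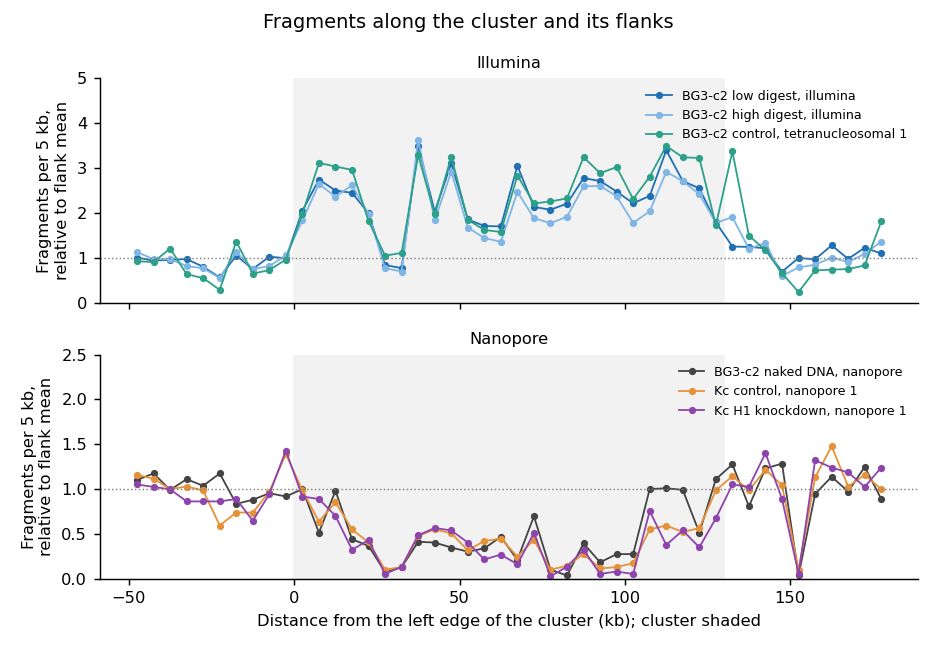
Fragments per 5 kb window relative to the mean flank window, against the distance in kb from the left edge of the cluster (shaded). Illumina libraries (top) stand above the flanks over most of the array, with a dip at about 25 to 35 kb; naked DNA and Kc nanopore libraries (bottom) are lowest in the middle of the array.

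The repeat unit itself could be read from the deepest library, the Illumina low digest, which placed 53422 midpoints of fragments of 100 to 250 bp in the cluster. These fragments are shorter than the selected band. Of all periods from 4500 to 5500 bp in steps of 5 bp, folding at 5035 bp kept the most variance, 22.0%, against 3.65% at the median period. The medium and high digests had their maximum at the same period, 5035 bp, with 19.4% and 14.7%. Other profiles gave shorter or longer periods. Fragment ends gave 5005 bp in all 3 digests, and midpoints of tetranucleosomal fragments gave 4980 bp in the medium digest, 4985 bp in the high digest and a period 1 step below 5035 bp in the low digest. In the 4 tetranucleosomal libraries, midpoints of fragments of 100 to 250 bp gave 4975 to 5055 bp and ends gave 4975 to 4985 bp. The period of the low digest is a description, since it was chosen there.

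When units were aligned to one another, 22 of 26 stretches sought along the array matched, with correlations of 0.65 to 0.939 to the mean unit. Of these, 15 were followed by the next start after 5035 to 5070 bp, with a median of 5045 bp, and 3 neighbouring units, starting at 21516669, 21521504 and 21526344, after 4835 to 4845 bp. Another 4 had spacings between 4570 and 5140 bp. The 4 stretches without a match were 3 in a row from 21436544, where the dip in Illumina density lies, and the last, from 21540799. The array in release 5 thus read as mostly long units of nearly equal length with a run of 3 shorter ones. Matching and counting used a window of fixed length, shorter than the unit, that opens before the start given for each unit. In the low digest the windows of the aligned units held 6415 to 12823 fragments each, with a median of 8910. In naked DNA they held 4 to 113 reads, with a median of 42.

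Folded over the 15 long units, the mean unit kept 60.6% of the variance of the low digest, 51.3% of the medium and 37.5% of the high digest. Units were aligned on the low digest alone, so its own value is partly built in. A read from identical copies may have been placed at any of them, which makes copies alike, and the copies are not independent.

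In the titration, the folded unit held a series of maxima, many at nucleosome-sized gaps, and a wide low region. Positions are counted in bp from the lowest minimum of the low digest. There were 20 maxima with a median gap of 207 bp, and 11 of the 19 gaps were 150 to 230 bp. The best spacing by autocorrelation was sought from 150 to 230 bp only, so any profile returns a value in that range. It was 186 bp in the low digest (autocorrelation 0.457), 188 bp in the medium digest (0.504) and 176 bp in the high digest (0.595). In the tetranucleosomal libraries the same search gave 167 bp in ISWI replicate 2 and 150 bp, the limit of the search, in the other 3. The highest maximum lay at 3348, with 3.14 times the mean density of the unit, and the next at 1940, with 2.59 times. The 3 lowest minima, at 0, 4363 and 4773, held 0.036, 0.228 and 0.046 times the mean. The count starts at the lowest minimum by choice, so position 0 marks no known boundary. Units were cut before the count was set, so the joint of the folded units lies elsewhere. Its part in the profile near it was not tested.

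The tetranucleosomal libraries of the same cell line followed this pattern weakly, so the maxima describe the titration. Their midpoint profiles correlated at 0.177 to 0.269 with the low digest and at 0.381 to 0.494 with the high digest, against 0.739 to 0.895 among themselves. At 3348 they held 0.678 and 0.147 times the mean in controls and 0.457 and 1.25 times after ISWI dsRNA. The low region was low in them too, with 0.000 to 0.095 times the mean at 0, 0.188 to 0.414 at 4363 and 0.000 to 0.069 at 4773. In the folded units these libraries held 232 to 1761 midpoints of fragments of 100 to 250 bp, against 4342 to 30287 in the titration. The part of depth in the difference was not tested.

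More digestion changed the height of maxima unequally. At 3348 the level was 3.14, 2.42 and 1.64 from low to high, a log2 difference of -0.94 between high and low. At 2500 it was 2.04, 1.31 and 1.02, a log2 difference of -1.0. At 1940 it was 2.59, 2.40 and 1.92. These maxima were each lower with each step of digestion. The maximum at 1224 was not, at 1.74, 2.15 and 1.97. Of the 8 highest maxima, 7 were lower in the high than in the low digest and 1 was higher. They were chosen as the highest of the low digest, which favours lower values elsewhere. The minimum at 0 held 0.036, 0.011 and 0.165. Correlations of the folded profiles across positions were 0.945 between low and medium, 0.894 between medium and high and 0.786 between low and high. With 1 library per digest, none of these differences has a replicate check.

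**Figure D4:**
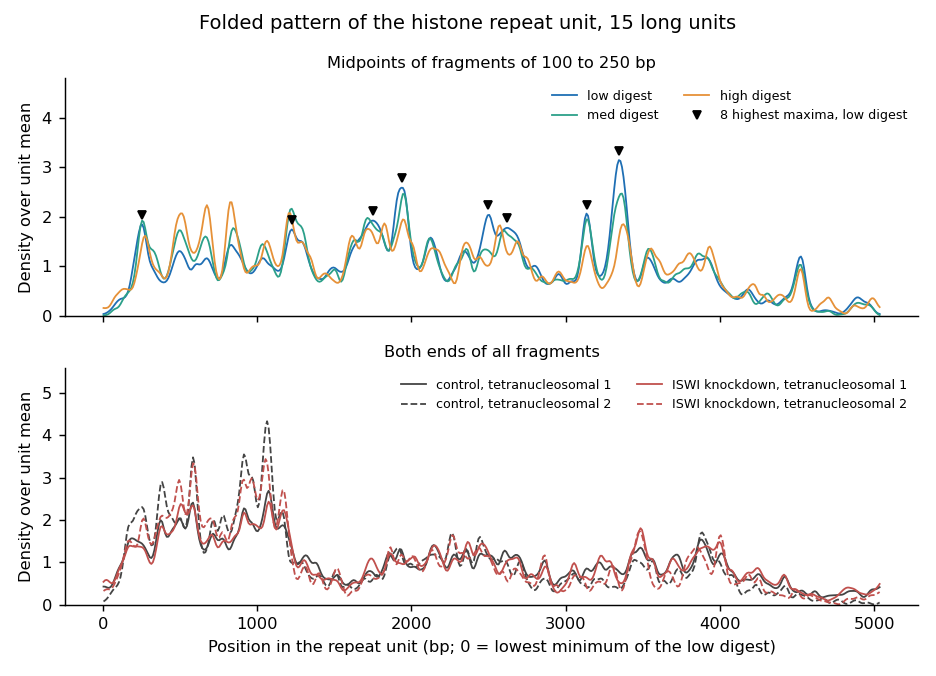
Folded profiles over 15 long units against the position in the unit in bp, as density over the unit mean. Top, midpoints of fragments of 100 to 250 bp in the low, medium and high Illumina digests, with the 8 highest maxima of the low digest marked; the one at 3348 goes from 3.14 to 1.64 between low and high. Bottom, both ends of all fragments in the 4 tetranucleosomal libraries, where 7 of the 8 highest maxima of control replicate 1 lie at 189 to 1074.

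As a whole the cluster changed little against its flanks between digests on Illumina. The high-to-low ratio of densities was 0.921 (95% interval 0.904 to 0.939), but it was 1.01 when all listed intervals were counted. On nanopore it was 0.660 (0.486 to 0.895), and 1.07 and 1.41 when set against naked DNA of the same lengths up to 1200 bp and at all lengths. Against the median block instead of the flanks it was 0.749 on Illumina and 0.570 on nanopore, the same direction as against the flanks and further from 1. The direction thus turned with the counting of repeated intervals on Illumina and with the naked DNA baseline on nanopore.

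Fragments in the cluster were longer than those beside it. The median length was 735 bp against 587 bp in untreated BG3-c2 replicate 1 and 820 against 581 bp in replicate 2. In Kc control replicate 1 it was 840 against 631 bp, and in H1 replicate 1 it was 870.5 against 723 bp. The cluster had the longer median in 9 of 9 nanopore chromatin libraries, by 216 bp on average (SD 117; p = 0.0039, exact sign-flip test), and by 177 bp in the 7 deeper ones (SD 87.0; p = 0.0156, exact sign-flip test). It did so in 7 of 7 Illumina libraries, by 95.6 bp (SD 27.8; p = 0.0156, exact sign-flip test). Naked DNA, which has no nucleosomes, had 573 against 413 bp. The part of read placement in this difference was not tested.

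Short fragments were fewer to match. Fragments up to 250 bp, about 1 nucleosome, made up 21.2% and 28.7% of cluster fragments in the BG3-c2 control libraries against 31.2% and 37.1% of flank fragments. After ISWI dsRNA they made up 20.2% and 25.5% against 28.3% and 35.5%. The Illumina low, medium and high digests gave 23.1%, 17.2% and 15.5% against 25.0%, 22.0% and 21.2%. In all Illumina libraries, fragments of this length lie outside the selected band. The mean difference over the 7 Illumina libraries was -6.98 percentage points (SD 3.00; lower in 7 of 7; p = 0.0156, exact sign-flip test). Over the 9 nanopore chromatin libraries it was -2.28 points (SD 2.84; lower in 8 of 9 and at 0 in both regions in the other; p = 0.0078, exact sign-flip test), and over the 7 deeper ones -2.09 points (SD 2.77; median -1.09; p = 0.0156, exact sign-flip test). Untreated BG3-c2 replicate 2, with 52 cluster and 70 flank fragments, had the widest difference, -8.08 points, and without it the other 6 averaged -1.09 points (SD 0.93; lower in 6 of 6; p = 0.0313, exact sign-flip test, the smallest p possible). With a limit of 200 bp the nanopore difference was -0.089 points (p = 0.984, exact sign-flip test) and the call was lost. Naked DNA had 8.97% against 12.9%.

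The ladder of the cluster was read as a repeat length, the slope through the histogram maxima of nucleosome numbers 2 to 5. It was 186.4 bp in untreated BG3-c2 replicate 1, where the arms gave 183.1 bp. Kc control replicate 1 gave 189.2 bp from 775 fragments, against 180.6 bp on the arms. H1 replicate 1 gave 193.7 bp from 370 fragments, against 165.3 bp on the arms. The flanks of the same library gave 198.8 bp from 742 fragments, but with 1 maximum on a search limit, so this value does not measure spacing. Whether the longer value was particular to the cluster cannot be told from it. With no maximum on a limit, the flanks gave 157.8 bp in Kc control replicate 1, below its cluster. In untreated BG3-c2 replicate 1 they gave 193.7 bp, above its cluster. H1 replicate 2 gave 158.5 bp in the cluster from 14 fragments, against 164.3 bp on the arms. The same search returned 199.6 bp for the cluster in naked DNA, which has no ladder, so it gives a value at this depth whether or not a ladder is there.

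In 6 nanopore chromatin libraries, none of the maxima of nucleosome numbers 2 to 5 lay on a search limit in the cluster or on the arms. There the cluster was longer than the arms by 14.2 bp on average (SD 19.7, longer in 5 of 6, p = 0.156, exact sign-flip test), which did not pass. The range was -17.4 to 33.3 bp. In the low, medium and high digests among them, the first maximum on the arms lay at 230 bp, the upper limit of its search. Later maxima were sought from it. Replicate 2 of the Kc control and of H1 gave 187.5 and 158.5 bp. Each had 1 of maxima 2 to 5 on a search limit, and the first maximum at 110 bp, a limit too. With these, the H1 libraries averaged 176.1 bp (SD 24.9) and the controls 188.4 bp (SD 1.2), with p = 1.00 in an exact permutation test that cannot go below 0.33. The replicates differed in direction, with H1 4.5 bp above the control in replicate 1 and 29.0 bp below it in replicate 2.

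Against the flanks, the density of the cluster after H1 knockdown was within the spread of its replicates. The log2 ratio to the flanks averaged -1.02 (SD 0.51, n = 2) after H1 dsRNA and -1.07 (SD 0.21, n = 2) in controls, a difference of 0.05 (p = 1.00, exact permutation test). The H1 libraries lay on both sides of the controls. By replicate the differences were -0.17 and 0.26. The size moved with the setting, to 0.38 with fragments of 500 to 1000 bp and to 0.64 and 0.09 against naked DNA at all lengths and up to 1200 bp (p = 1.00, 1.00 and 0.67, exact permutation tests), and it was -0.42 against the median block (p = 0.33, exact permutation test, the smallest p possible). Among 919 blocks of 130 kb tested with limma and Benjamini-Hochberg adjustment at 0.05, none was called, a background of 0%, and 51 had an unadjusted p under 0.05. The cluster block changed by -0.42 on the log2 scale (SE 0.29; adjusted p = 0.946). Levels, as log2 of fragments scaled to library size, were 9.29 and 9.76 in the controls and 9.09 and 9.11 in the H1 libraries, so the groups did not overlap. The blocks on its left and right changed by -0.37 (SE 0.20) and -0.36 (SE 0.18), close to the cluster itself.

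Whether density differed between untreated BG3-c2 and Kc control turned on the baseline. The Kc cells had been given dsRNA against GST and the BG3-c2 cells had not, so this contrast is not one of cell line alone. The part of the dsRNA was not tested. Against the flanks, untreated BG3-c2 averaged -1.04 (SD 0.33, n = 2) and Kc control -1.07 (SD 0.21, n = 2) on the log2 scale, a difference of 0.02 (p = 1.00, exact permutation test). BG3-c2 was lower in replicate 1, by -0.07, and higher in replicate 2, by 0.11. Relative to the median block, BG3-c2 held 0.479 and 0.520 and Kc 0.570 and 0.815, so BG3-c2 lay below Kc without overlap, with a log2 difference of -0.45 (p = 0.33, exact permutation test, the smallest p possible). Against naked DNA at all lengths, BG3-c2 held 0.525 and 0.723 and Kc 0.456 and 0.419, so BG3-c2 lay above Kc without overlap, with a log2 difference of 0.49 (p = 0.33, exact permutation test). Against naked DNA up to 1200 bp, where BG3-c2 held 0.678 and 0.811 and Kc 0.689 and 0.525, the groups overlapped and the difference was 0.30 (p = 0.67, exact permutation test). Kc replicate 2 held 22 cluster fragments, and no direction held under every baseline.

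After ISWI dsRNA the density of the cluster was also within the replicates. The log2 ratio to the flanks averaged 1.38 (SD 0.10, n = 2) against 1.37 (SD 0.09, n = 2) in controls, a difference of 0.01 (p = 1.00, exact permutation test), with 0.14 in replicate 1 and -0.12 in replicate 2. In the limma test of 922 blocks none was called, again a background of 0%, with 26 at an unadjusted p under 0.05. The cluster block changed by -0.01 (SE 0.07; adjusted p = 0.969), with log2 levels of 10.85 and 10.96 in controls and 10.98 and 10.80 after ISWI dsRNA. The groups overlapped.

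Tetranucleosomal fragments had lower medians in both ISWI libraries than in both controls, in the cluster and on the arms. In the cluster, fragments between 500 and 1000 bp had a median of 682 and 664 bp in the control libraries and of 643 and 626 bp in the ISWI libraries. The groups did not overlap, and the difference was -38.5 bp (p = 0.33, exact permutation test, the smallest p that 2 against 2 allow). On the arms both controls had 668 bp, and the ISWI libraries had 644 and 635 bp. Relative to the median block of each library, the mean length in the cluster was 9.72 and -3.52 bp for the controls and 4.01 and -4.74 bp for the ISWI libraries, and these groups overlapped. The difference was -3.47 bp (SE 3.71; adjusted p = 1.00 with limma). None of 922 blocks was called, a background of 0%, and 14 had an unadjusted p under 0.05. Without centring on each library's median block, 778 blocks were called and the cluster changed by -28.0 bp (adjusted p = 0.0053 with limma), a call that ends when each library's own median block is subtracted.

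The blocks beside the cluster went in opposite directions in this test. The left block changed by -7.22 bp (SE 3.57) and the right block by 7.42 bp (SE 3.36), with adjusted p = 1.00 for each. Neither passed.

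Compared with the arms within the same library, the cluster's tetranucleosomal median was 14 bp longer in control replicate 1 and 4 bp shorter in replicate 2. It was 1 and 9 bp shorter in the ISWI libraries. The mean difference was 0.0 bp (SD 9.9, n = 4; p = 1.00, exact sign-flip test, smallest possible 0.13). In the titration the cluster had 717, 680 and 670 bp in the low, medium and high Illumina digests, each above the 701, 663 and 657 bp of the arms. Against the flanks, the cluster was longer in 5 of 7 Illumina libraries, equal in 1 and shorter in 1, by 9.5 bp on average (SD 9.6; p = 0.0938, exact sign-flip test), which did not pass. Naked DNA gave 705 bp in the cluster and 649 bp on the arms.

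**Figure D5:**
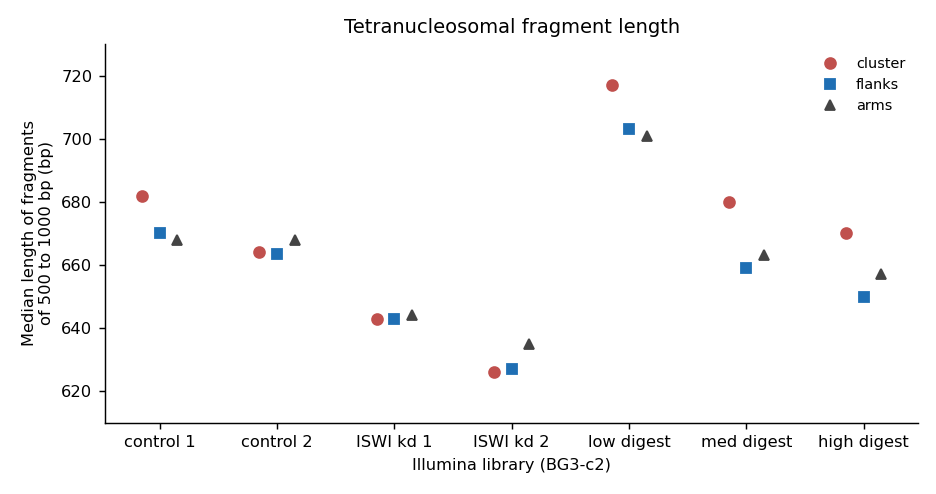
Median length of fragments of 500 to 1000 bp in the cluster, the flanks and the arms in the 7 Illumina libraries of BG3-c2; the axis does not start at 0. ISWI libraries lie at 626 to 644 bp in every region and control libraries at 663.5 to 682 bp.

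In the tetranucleosomal libraries, fragment ends were placed alike in the unit with and without ISWI dsRNA. Both ends of all fragments were used, whatever their length. Across positions the folded end profiles correlated at 0.941 between the controls, 0.931 between the ISWI libraries, and 0.957 and 0.932 between control and ISWI of the same replicate. They correlated at 0.259 to 0.406 with the low digest and at 0.453 to 0.61 with the high digest. Of the 8 highest end maxima of control replicate 1, 7 lay at 189 to 1074 in the unit. The highest maximum of control replicate 1 lay at 1074, with 2.67 and 4.16 times the unit mean in controls and 2.41 and 3.09 times in ISWI libraries.

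Among the 8 highest end maxima of control replicate 1, the log2 difference of ISWI to control had the same sign in both replicates at all 8, from -0.45 to 0.51. At 499 it was above the control, with 2.02 and 2.04 times the mean in controls and 2.33 and 2.90 times after ISWI dsRNA. At 376 it was below, with 1.98 and 2.83 against 1.83 and 2.07. The other 6, at 189, 582, 715, 917, 1074 and 3877, were below too, by -0.01 to -0.44. Control replicate 2 was above control replicate 1 at all 8. These positions were chosen after their values were seen, as maxima of a control library, and they were not tested.

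Folded ends of the nanopore libraries related to one another more than to Illumina. Kc control and H1 replicate 1 correlated at 0.569 across positions, and naked DNA correlated with the 3 deeper chromatin libraries at 0.30 to 0.39. Naked DNA correlated with the Illumina libraries at -0.203 to -0.098. These libraries differ in platform as well as in chromatin, and these cannot be told apart.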

How the data were processed

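Per the submitters' processing notes, the genome build is dm3 (release 5) and the tools include Bowtie 1.1.1 and bedtools, with no role given; other steps are not given in the sources used here. The authors deposited 1 interval per aligned fragment, and for 9 nanopore libraries a score. Titration tables were matched to libraries by table name. Identical intervals were counted once, and length was end minus start. Midpoints assigned fragments to the cluster (2L 21415001 to 21545000) and flanks. Densities have exact 95% intervals and shares Wilson 95% intervals, covering counting error only. Repeat lengths used a histogram smoothed with SD 10 bp over one with SD 100 bp, each maximum taken 130 to 230 bp beyond the previous. Blocks of 130 kb on 6 arms were tested with limma 3.58.1 (R 4.3.3), as log2 of fragments scaled to library size plus a pseudocount of 1 (at least 10 fragments per library), or as mean length (at least 100 fragments per library) minus the library's median block. Library values were compared by exact two-sided permutation or sign-flip tests. Folds were smoothed with SD 20 bp. Units needed a correlation of 0.5. The highest 8 maxima and lowest 3 minima of the low digest were to be named. Scripts ran under Python 3.11.15 with NumPy 2.4.6 and SciPy 1.17.1 and were tested on simulated data. The region, members and tests were chosen with earlier results of these data known. Alternatives covered baseline, lengths, repeated intervals, scores, smoothing, centring, window size, period and replicates; tests without libraries under 30 cluster fragments and lengths matched to naked DNA were added after seeing the data.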

Additional observations from a re-analysis of the deposited data

How the results depend on the processing

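Of 129 values under other settings, 91 kept their direction and side of the threshold where there was a test, stayed inside the counting interval where there was none, or, for a count of blocks, stayed within 1.5 times. In permutation tests of 2 libraries against 2, where p cannot go below 0.33, only the direction could change. Some of the others moved, and a part of these crossed 1. In naked DNA, the cluster ratio was 0.649 with fragments of 500 to 1000 bp, 0.332 with 100 to 250 bp and 0.143 with scores of at least 20. Over 1200 bp it crossed 1, to 2.53. With the median block as baseline the H1 difference in density was -0.42 and the BG3-c2 minus Kc difference -0.45, both reversed. The ISWI difference in density reversed to -0.0559 with 500 to 1000 bp and to -0.0066 with 100 to 250 bp. Leaving out a replicate gave -0.32 to 0.41 for H1 (reversed without H1 replicate 2 or control replicate 1), -0.0638 to 0.084 for ISWI (reversed without ISWI replicate 1 or control replicate 1) and -0.21 to 0.26 for BG3-c2 minus Kc (reversed without BG3-c2 replicate 2 or Kc replicate 1). The H1 repeat length difference was -29.9 to 5.35 bp, reversed without H1 replicate 2. The nanopore share up to 250 bp lost its call with a limit of 200 bp, at -0.089 points. The digestion ratio on Illumina crossed 1, to 1.01, with all listed intervals and was 0.749 with the median block. On nanopore it crossed 1, to 1.41 and 1.07, against naked DNA at all lengths and up to 1200 bp. Folding kept 20.5% and 13.5% of variance at periods 50 bp shorter and longer, 20.0% for fragment ends and 60.6% with aligned units. Without centring, 778 blocks were called for tetranucleosomal length, and 1 of 9 windows of 10 kb was called for H1 coverage, none of the 9 in the cluster. Leaving out a replicate gave 0 to 24 called blocks for ISWI coverage, 0 to 3 for tetranucleosomal length and 0 to 9 for H1 coverage. The cluster block itself reversed for ISWI coverage to 0.0406 without control replicate 2, 0.0755 without ISWI replicate 2 and 0.0777 with all listed intervals, over a range of -0.103 to 0.0755 with a replicate left out. Its length change reversed to 3.15 bp without control replicate 1 and 0.91 bp without ISWI replicate 2, over a range of -10.1 to 3.15 bp. The cause was not tested. The replicate block called 6 blocks for ISWI coverage, 1 for tetranucleosomal length and 0 for H1 coverage, none of them the cluster. It cannot change the density and length differences of the cluster, 0.05, 0.01, 0.02, -12.3 and -38.5. With 2 libraries against 2, the mean of the within-replicate differences equals the difference of means. These values are counted among the 91 but are no check. Same-numbered libraries deviated together across blocks at 0.729, 0.604 and 0.011, but 2 pairs do not show pairing. Fragments of 100 to 250 bp gave no H1 or BG3-c2 minus Kc ratio, because a library held none, and scores gave no BG3-c2 minus Kc ratio, because 1 library has none.

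Depth limits the nanopore values: with 14 cluster fragments, H1 replicate 2 has a density ratio of 0.634 with an interval of 0.289 to 1.37.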
